A study of Mus musculus with 2 samples.

Results

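The genes described are the autophagy and mitophagy genes, 40 genes chosen by name. The gene tables list 43346 genes, and GENCODE M21 annotates 21474 of them as protein-coding. All 40 were matched by gene identifier, and the rule that picks them uses their names and no threshold on a measured value. They were read in poly(A)-selected, paired-end RNA-seq libraries of primary megakaryocyte-erythroid progenitors (MEP), precursors of the red cell and megakaryocyte lines. The cells came from adult C57BL/6J female mice of 5 weeks, and a label gives them as negative for CD34 and also names CD16/32, without a sign. The data hold 1 group of 2 biological replicates, separate biosamples under 1 donor identifier, with no treatment and no other genotype. No label says how many animals were used or whether they were pooled, and the spread between the replicates may be partly technical.

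In autophagy a flat membrane sac closes around cytoplasm or an organelle and delivers it to the lysosome. The ULK1 kinase complex starts the process, the class III lipid kinase complex built on Beclin 1 marks the membrane, ATG9 and ATG2 supply lipid, and an enzyme cascade couples small ATG8-type proteins (LC3 and GABARAP) to the sac. Cargo receptors then tie the load to the ATG8-type proteins; in mitophagy the load is a mitochondrion. The pathway is known in this lineage because maturing red cells clear their mitochondria in this way, with BNIP3L (NIX) as the best-known receptor.

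TFEB, a member of the set, is known to bind a site with the core CACGTG, an E-box that other helix-loop-helix factors also bind. RefSeq promoter windows on GRCm38.p6, from 250 bases before the start to 50 after, held 33 of the 40 genes in 38 windows. The core was in 5 of these 38 windows, or 13.2%, against 7.15% of all 32851 windows; it reads the same on both strands. The stretches that hold it are shown because they show where the core lay in the windows of Atg3, Atg5, Atg7, Atg14 and Bnip3, which were the only members with a match. They are written 5′ to 3′ on the gene's strand, 30 bases each, with the core in capitals.
Atg3, first site, chr16:45158723-45158752 (+): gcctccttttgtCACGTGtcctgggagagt
Atg3, second site, chr16:45158746-45158775 (+): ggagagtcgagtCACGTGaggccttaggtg
Atg5, chr10:44268313-44268342 (+): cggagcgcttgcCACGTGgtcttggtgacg
Atg7, chr6:114670952-114670981 (+): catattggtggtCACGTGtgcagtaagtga
Atg14, chr14:47568418-47568447 (-): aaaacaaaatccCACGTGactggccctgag
Bnip3, chr7:138909597-138909626 (-): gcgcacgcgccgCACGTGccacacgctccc
The core began 94 and 71 bases before the start in Atg3, 14 in Atg5, 132 in Atg7, 1 in Atg14 and 108 in Bnip3. The start is that of the RefSeq window. The sites of Atg7 and Atg14 lay inside the genes as GENCODE M21 places them. There Atg7 begins at 114643097 on the plus strand and Atg14 at 47570649 on the minus strand. These windows are thus not at the outermost start of either gene. The longer site known as the CLEAR element, here the core with GT before it and AC after it, was in 0 of the 38 windows, against 0.326% of all windows. The FOXO site GTAAACA, searched because Foxo3 is a member, was in 0 of 38 against 3.65%. The GATA sites AGATAA and TGATAA were each in 2 of 38 (Atg4a and Atg4d, and Atg4a and Pink1), against 11.2% and 9.05%. All motifs were searched on both strands and were chosen after values had been seen. A match describes letters in a window, and windows of members and of all genes were not matched for base composition.

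The gene counts totalled 79539452 (replicate 1) and 65305315 (replicate 2). Levels below are TPM (transcript abundance corrected for length and scaled to 1000000 per library) as the mean of the 2 libraries ± SD, n = 2, and positions are on GRCm38. Markers of other cells were present: 10 granulocyte and monocyte genes summed to a TPM of 31293 in the first replicate and 17361 in the other, led by Mpo and Prtn3 at 8329 ± 2555 and 7893 ± 3829. The summed TPM of 11 erythroid genes, led by Hba-a1 and Hbb-bs at 688 ± 269 and 497 ± 306, was 1269 and 2199. Transcripts annotated as protein-coding held only 6.29 and 7.46 TPM of Hba-a1 and 2.04 and 7.97 of Hbb-bs. The erythroid sum and its leaders thus depend on how reads were divided among transcripts. The summed TPM of 7 genes listed for megakaryocytes, led by Fermt3 and Itga2b at 648 ± 9.48 and 163 ± 68.5, was 857 and 1007. Fermt3 alone held 641 and 654 of these sums, so they describe mainly that gene. The summed TPM of 5 B cell genes, led by Cd79a and Pax5, was 83.0 and 33.0, and that of 5 stress genes, led by Jun and Fos, 7520 and 3001. No marker in these lists was at 0 in either library, so in this bulk RNA the share of each member that came from progenitors, and fewer cells against less RNA per cell, cannot be told apart.

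The autophagy genes were expressed almost throughout. A TPM of 1 or more in both libraries was reached by 37 of the 40 members, against 46.9% of all protein-coding genes. Their median was 19.3 in replicate 1 and 19.1 in replicate 2, next to 16.4 ± 0.721 over the 10061 protein-coding genes at that level and 0.71 ± 0.0566 over all protein-coding genes. Of the members, 20 lay above the middle of the 10061. By mean TPM, 4 members were at 100 or more, 9 between 50 and 100, 14 between 10 and 50, 10 between 1 and 10, and 3 under 1. The members thus spread over the range of expressed genes, with neither library apart from the other.

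**Figure D1:**
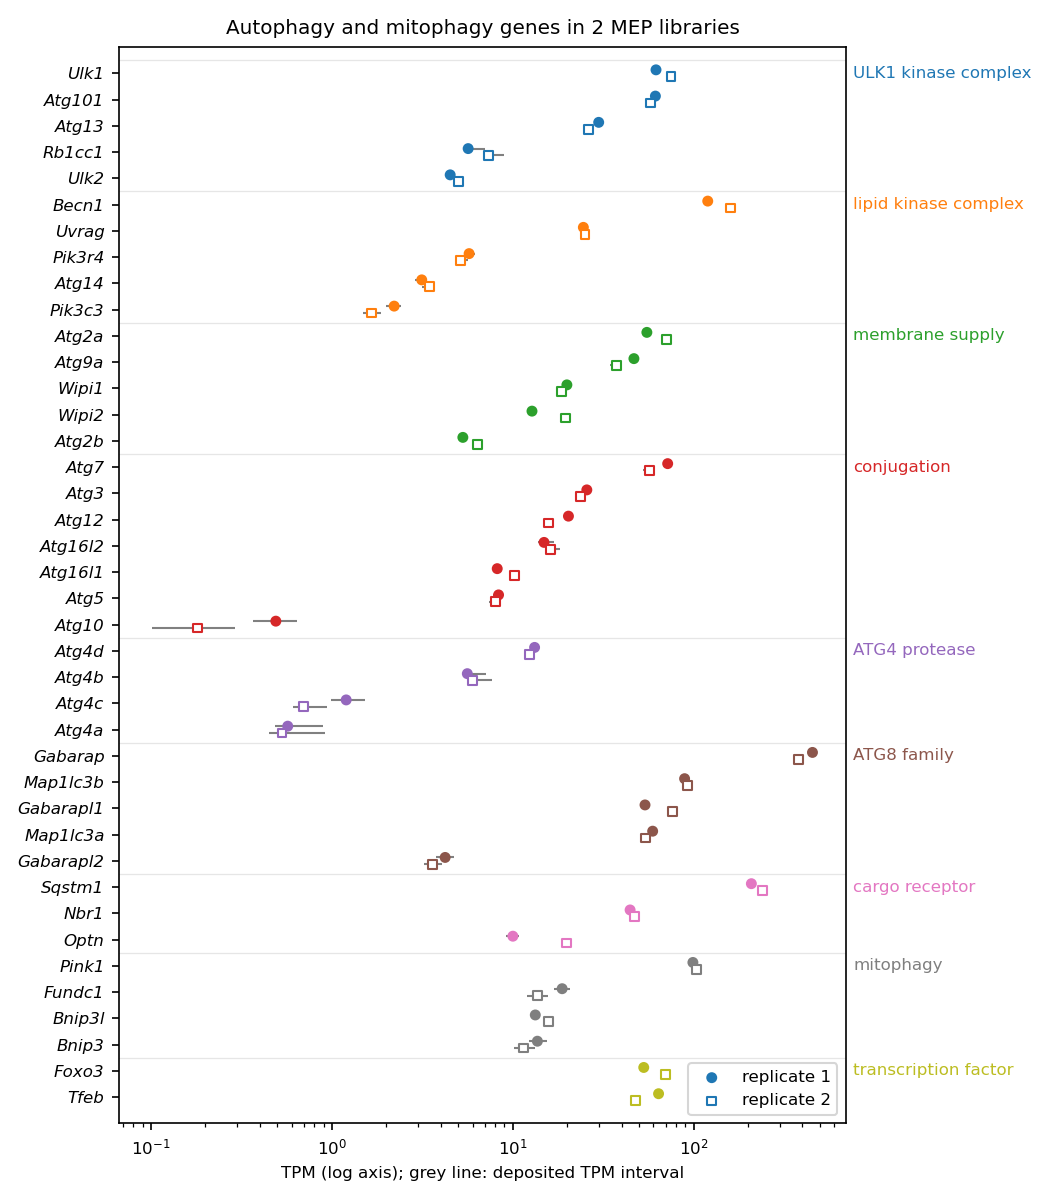
TPM of each of the 40 members (log x axis) in replicate 1 (filled circles) and replicate 2 (open squares), grouped and coloured by role, with the deposited TPM interval as a grey line. Gabarap, at 454 and 379, stands highest and Atg10, at 0.49 and 0.18, lowest.

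Among the genes that start autophagy, the kinase Ulk1 stood well above its paralog Ulk2. Ulk1 (ENSMUSG00000029512.7, chromosome 5, 110784488 to 110810097) had a TPM of 62.0 in replicate 1, 75.0 in replicate 2. In the same order, used from here on, Ulk2 was at 4.51 and 5.02. The ratio was 14.3-fold, a mean log2 ratio of 3.84 ± 0.09 (SD, n = 2), and the libraries lay close together for it. The adaptor Atg101 was at 61.5 and 57.9, in the range of Ulk1, and its partner Atg13 at 29.9 and 26.2. Rb1cc1, which encodes the scaffold FIP200, was low for the complex at 5.67 and 7.38.

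In the lipid kinase complex the catalytic subunit was lowest at gene level. Pik3c3, the lipid kinase VPS34 itself, was at 2.21 and 1.65, and its regulatory subunit gene Pik3r4 (VPS15) at 5.74 and 5.13. Atg14, the subunit that directs the complex to autophagy, was at 3.14 and 3.46. Uvrag, which takes the place of Atg14 in the endosomal form of the complex, was above it at 24.6 and 25.1. Becn1, the Beclin 1 gene (ENSMUSG00000035086.9, chromosome 11, 101285952 to 101302286), was the third highest of all members at gene level, at 120 and 159. Its transcripts, described below, show that little of this level was assigned to protein-coding ones.

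For membrane supply, Atg2a exceeded Atg2b, both of which encode lipid transfer proteins. Atg2a was at 55.2 and 70.7 and Atg2b at 5.30 and 6.42, a ratio of 10.7-fold (mean log2 ratio 3.42 ± 0.06, SD, n = 2). From uncorrected counts the mean log2 ratio was 2.44 ± 0.03. Atg9a, the gene of the membrane protein that seeds the sac, was at 46.8 and 37.3. Part of its count is uncertain, since Gm29253 on the same strand shares its locus and both genes have fractional counts, 6658 and 5360 in replicate 1. The genes of the lipid-binding WIPI proteins had no common order: Wipi1 was at 19.9 and 18.7, and Wipi2 at 12.8 and 19.6. Wipi2 was below Wipi1 in replicate 1 with separate intervals, and slightly above it in replicate 2, where the intervals overlapped.

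The conjugation genes spanned a wide range. Atg7, the E1-type enzyme of both conjugation branches, was at 71.9 and 57.0, and Atg3, the E2-type enzyme for ATG8 proteins, at 25.7 and 23.8. The ubiquitin-like Atg12 was at 20.3 and 15.8 and its partner Atg5 at 8.35 and 8.05. Atg10, the E2-type enzyme that joins those partners (ENSMUSG00000021619.5, chromosome 13, 90935356 to 91223968), was at 0.49 and 0.18, on 48 and 14 counts, the lowest of the 40. Enzyme genes of the same cascade thus stood at very different mRNA levels, also when only the protein-coding transcripts of Atg7, described below, are taken. Of the scaffold genes that complete the complex, Atg16l1 was at 8.21 and 10.2 and Atg16l2 at 14.9 and 16.1. Their mean log2 ratio was -0.76 ± 0.14 in TPM and 0.31 ± 0.21 in counts not corrected for length, so their order depends on the length correction.

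The ATG4 protease genes, whose products trim ATG8 proteins and release them from lipid, were low as a role. Atg4d was the highest at 13.2 and 12.4, followed by Atg4b at 5.61 and 6.00. Atg4c, at 1.20 and 0.70, and Atg4a, at 0.57 and 0.53, lay around the detection threshold. Atg4b exceeded Atg4a by 10.4-fold and Atg4c by 6.27-fold. The first of these had a mean log2 ratio of 3.38 ± 0.14, against 2.68 ± 0.13 over protein-coding transcripts. With a pseudocount of 1 TPM the mean log2 ratios to Atg4a and Atg4c were 2.13 and 1.81. It lay under Atg4d by a mean log2 ratio of -1.14 ± 0.14 (SD, n = 2) in TPM. From uncorrected counts that value was -0.94 ± 0.01, and over protein-coding transcripts -1.83 ± 0.13. Both Atg4b and Atg4d are overlapped on the other strand by more abundant genes, Thap4 at 64.9 ± 2.80 and Kri1 at 74.6 ± 22.2. The text deposited with each library lists separate plus and minus strand tracks, but no source used here says whether the counting used strand. Without strand, reads of such neighbours cannot be told apart.

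One gene held most of the ATG8 family mRNA. Gabarap (ENSMUSG00000018567.10, chromosome 11, 69991143 to 69994951) was at 454 and 379, the highest of the 40 members and at percentile 98.5 of all protein-coding genes. It made up 68.7% and 62.6% of the family's summed TPM, which was 634 ± 38.8. Map1lc3b, the LC3 gene used most often as an autophagy marker, was at 89.2 and 92.9, and Map1lc3a at 59.4 and 54.1. Gabarapl1 was at 53.9 and 76.3, with replicate 2 higher. Gabarapl2 (GATE-16), at 4.23 and 3.62, was the family's low member. The family thus held a pair of extremes, with Gabarap above Gabarapl2 by 106-fold (mean log2 ratio 6.73 ± 0.03) and above Gabarapl1 by 6.48-fold (2.70 ± 0.54). From uncorrected counts these log2 ratios were smaller, at 5.69 ± 0.17 and 1.44 ± 0.53. Map1lc3b and Map1lc3a were within 2-fold, at a mean log2 ratio of 0.68 ± 0.14. Gm20388, on the same strand, overlaps Map1lc3b and was at 15.0 and 9.53, so the count of Map1lc3b is uncertain too.

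Sqstm1 led the cargo receptors. Sqstm1, which encodes p62 (ENSMUSG00000015837.11, chromosome 11, 50199366 to 50210827), was at 209 and 241, second of the 40. Its relative Nbr1 was at 44.6 and 47.0. Optn, the gene of the receptor optineurin, was at 10.02 and 19.89, and replicate 2 was the higher library. The ratio of Sqstm1 to Nbr1 was 4.90-fold (mean log2 ratio 2.29 ± 0.09, SD, n = 2).

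Among mitophagy genes, the kinase gene Pink1 was highest and the receptor genes lay well under it. Pink1 (ENSMUSG00000028756.8, chromosome 4, 138313409 to 138326307), whose product labels damaged mitochondria, was at 99.2 and 104. Fundc1, a receptor gene of the outer mitochondrial membrane, was at 18.8 and 13.7. Bnip3l was at 13.3 and 15.8 and its relative Bnip3 at 13.7 and 11.5. Per length, Fundc1 exceeded Bnip3 in both libraries, with overlapping intervals in replicate 2. Bnip3l was, per length, the lowest of these receptor genes in replicate 1 and the highest in replicate 2. In uncorrected counts Fundc1 had 549 and 335, so it stood above Bnip3 in replicate 1 only and under Bnip3l in both. Bnip3l, chromosome 14, 66985239 to 67008877, had no common order with Bnip3 per length, with a log2 ratio of -0.04 in replicate 1, where the intervals overlapped, and 0.46 in replicate 2, where they were separate (mean 0.21 ± 0.35). Over protein-coding transcripts Bnip3l was the higher in both libraries, with a mean log2 ratio of 0.53 ± 0.24. In counts not corrected for length the ratio was 2.70 ± 0.26, since Bnip3l had 2691 and 2493 counts on an effective length of 3050 and 2988 bases and Bnip3 473 and 338 on 522 and 556.

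The transcription factor genes stood at similar levels. Tfeb, a master factor of lysosome and autophagy genes, was at 64.0 and 47.9, and Foxo3, a factor that also acts on autophagy genes, at 53.0 and 69.7. Tfeb was higher in replicate 1 and Foxo3 in replicate 2, so they had no common order.

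Of the 12 ratios within families that were examined, 8 had a mean beyond 2-fold, the same sign in each library and TPM intervals that did not overlap. The other 4 were Atg16l1 to Atg16l2, Map1lc3b to Map1lc3a, Bnip3l to Bnip3, and Wipi2 to Wipi1. In counts not corrected for length 9 pairs exceeded 2-fold: Map1lc3b to Map1lc3a (1.81 ± 0.14) and Bnip3l to Bnip3 were added, and Atg4b to Atg4d was lost. With protein-coding transcripts alone 9 did, Wipi2 to Wipi1 being added; for both of these counts the interval condition was not applied.

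**Figure D2:**
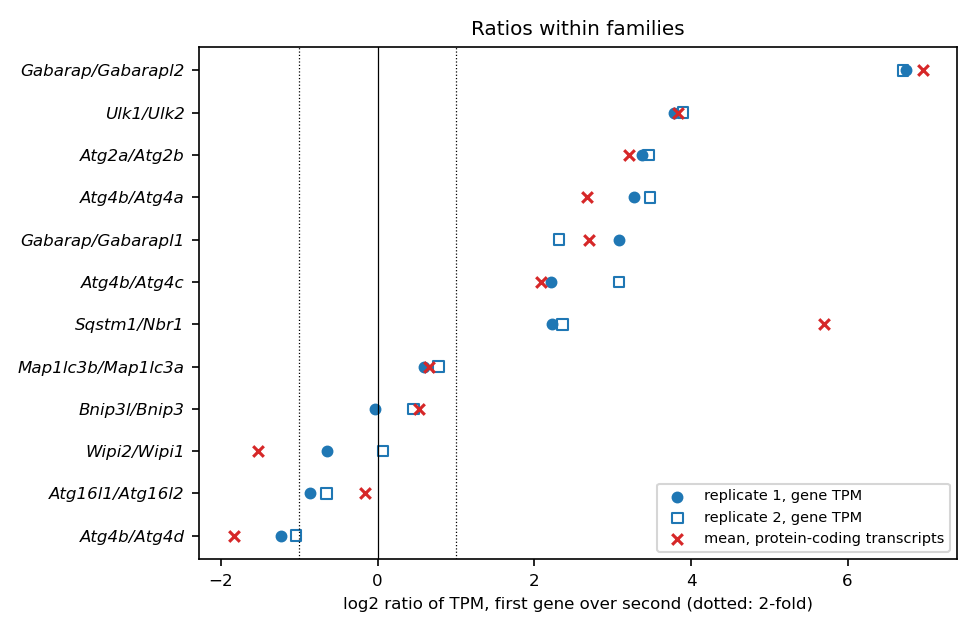
Log2 ratio of TPM for 12 pairs of related members, in replicate 1 (filled circles) and replicate 2 (open squares), with crosses for the mean ratio when only protein-coding transcripts are summed; dotted lines mark 2-fold. Gabarap to Gabarapl2 stands farthest out at 6.73, and Sqstm1 to Nbr1 moves from 2.29 to 5.69 with protein-coding transcripts alone.

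Several gene levels were carried by transcripts that are not annotated as protein-coding. Of the 33 members with a mean TPM of 5 or more, 6 had under 50% of their TPM in protein-coding transcripts in both libraries, or 18.2%, against 20.0% of all protein-coding genes at that level. The share is near the background. The members were Becn1, Nbr1, Rb1cc1, Pik3r4, Atg7 and Wipi2. By counts 3 of the 33 were under 50% in both libraries, Becn1, Nbr1 and Pik3r4, against 11.8% of protein-coding genes. In 20 of the 33, protein-coding transcripts held 90% or more of TPM in both libraries. For this count the share over all protein-coding genes is not given here.

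Becn1 was the farthest from its gene-level value. Protein-coding transcripts held 4.25% of its TPM in replicate 1 and 3.22% in replicate 2, so that their summed level was 5.11 ± 0.0283 and Becn1 moved from rank 3 to rank 29 among the members. The short Becn1-211 (487 bases, a retained intron) was at 43.5 and 78.7 and Becn1-209 (463 bases, a processed transcript) at 45.0 and 43.7. The longer Becn1-210 (3476 bases, also a retained intron) was at 5.63 and 7.43 but held 27.3% and 28.4% of the counts. By counts the protein-coding share was 5.86% and 4.40%, so the share of Becn1 was low by counts as well.

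Nbr1 and Atg7 differed from Becn1 in this respect. In Nbr1 the protein-coding transcripts held 7.27% and 11.8% of TPM but 41.4% and 45.0% of counts, and the retained-intron transcript Nbr1-216 (639 bases) held 69.4% and 67.9% of TPM. Their summed level was 4.40 ± 1.64, against 45.8 ± 1.73 for the gene. In Atg7, Atg7-213, a processed transcript of 408 bases, held 75.8% and 76.0% of TPM, whereas Atg7-201, the protein-coding transcript of 3761 bases, held 76.1% and 79.2% of counts. For Atg7 the summed protein-coding level was 13.6 ± 1.08, against 64.5 ± 10.6 for the gene. The order of Atg7 and Nbr1 among the members therefore rests on how reads were divided among transcripts.

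The remaining members of this kind were Rb1cc1, Pik3r4 and Wipi2. Protein-coding transcripts of Rb1cc1 summed to 1.29 and 1.17 TPM, with the retained-intron transcript Rb1cc1-213 at 67.9% and 68.2% of the gene. Those of Pik3r4 summed to 1.55 and 0.63, and its retained-intron transcript Pik3r4-209 held 64.8% and 58.4%. Those of Wipi2 summed to 5.84 and 7.64, which placed Wipi1 above Wipi2 with a mean log2 ratio of Wipi2 to Wipi1 of -1.53 ± 0.34 (SD, n = 2). Counting protein-coding transcripts alone also moved Sqstm1 to Nbr1 to a log2 ratio of 5.69 ± 0.40 and Atg16l1 to Atg16l2 to -0.15 ± 0.29. An antisense gene, 4732440D04Rik at 5.90 ± 0.940, overlaps Rb1cc1, and the part of its reads in Rb1cc1 was not tested.

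**Figure D3:**
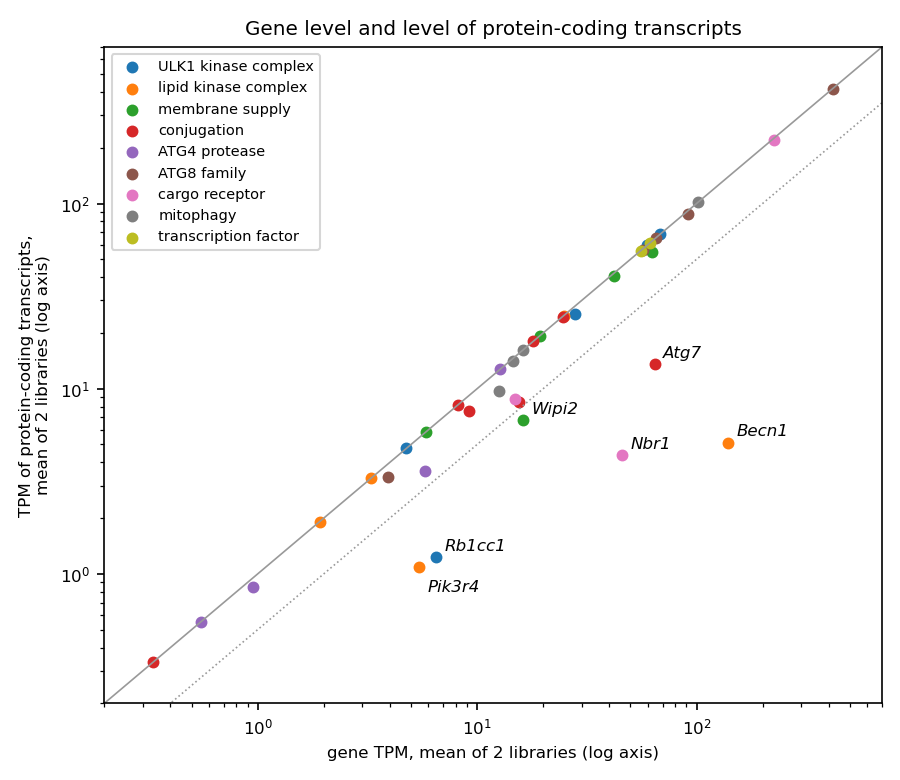
Gene TPM (x, log axis) against the summed TPM of protein-coding transcripts (y, log axis), each the mean of 2 libraries, for the 40 members coloured by role; the solid line marks equal values and the dotted line 50%. The 6 named members lie under the dotted line, Becn1 farthest, at 140 for the gene and 5.11 for protein-coding transcripts.

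The leading transcript by TPM was the same in both libraries for 28 of the 33 members, 8 of which have 1 annotated transcript. The share over all protein-coding genes is not given here, so this count does not set the members apart. In 4 of the 28 it was not protein-coding (Rb1cc1, Pik3r4, Atg7 and Nbr1). By share of counts the leading transcript was the same for 31 of the 33, and in 2 of these it was not protein-coding. Becn1, Atg9a, Sqstm1, Atg16l2 and Wipi2 had different leading transcripts by TPM in the 2 libraries. By counts Atg9a, Sqstm1 and Wipi2 kept the same one, so for them the change depends on the length correction. For Sqstm1 the leaders by TPM were Sqstm1-205, with 53.9% of TPM in replicate 1 and 47.0% in replicate 2, and Sqstm1-202, with 43.7% and 50.3%. Both are protein-coding, and Sqstm1-202 led by counts in both libraries, at 56.9% and 63.2%. The main transcripts of Tfeb kept similar shares, with Tfeb-202 at 58.6% and 59.0% and Tfeb-212 at 37.7% and 35.3%. The protein-coding Tfeb-204 was at 0% in replicate 1 and 5.34% in replicate 2. Pink1-201 led in both libraries, at 80.3% and 94.5%, with Pink1-203 at 19.6% and 5.39%. The short Fundc1-204 (448 bases, protein-coding) held 91.3% and 89.7% of Fundc1.

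Differences below are log2 CPM (counts scaled to 1000000 per library, with TMM factors) of replicate 1 minus replicate 2, so 1 library stands against 1 and no test was possible. Of the 33 members at that minimum level (mean TPM of 5 or more), 0 lay over 2-fold apart with separate TPM intervals, against 1.37% of the 7653 protein-coding genes at that level, and 32 were within 1.5-fold, or 97.0%, against 91.4%. Their median absolute log2 difference, however, was 0.22, slightly above the 0.19 of those 7653 genes. With so few genes apart in all, a count of 0 among 33 does not set the members apart. The TPM intervals, which cover quantification error within 1 library, were separate for 23 of the 33 (69.7%, against 66.8%). For most members the intervals were therefore narrower than the spread between replicates.

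Among the 33, Optn was farthest apart. It had 1133 counts in replicate 1 and 1817 in replicate 2, a log2 difference of -0.91, or 1.87-fold higher in replicate 2. Next among the 33 came Atg9a, with a log2 difference of 0.54, Fundc1 with 0.49, Atg12 with 0.47 and Tfeb with 0.46, all higher in replicate 1. Wipi2 had -0.42 and was higher in replicate 2. None of these 6 reached 2-fold. Under the minimum level, Atg10 was farther apart than Optn, at 48 and 14 counts and a log2 difference of 1.44 with separate intervals. Atg4c, at 193 and 112 counts, had 0.55, also with separate intervals.

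Of the 33 members at a mean of 5 or above, 20 (60.6%) were higher in replicate 1, against 53.7% of protein-coding genes. In TPM 15 of the 33 were, against 40.5%, so the split depends on the scaling. The median log2 difference over all 40 members, each of which passed the count filter, was 0.13, against 0.01 over 12402 protein-coding genes. Beside these values, all 10 granulocyte and monocyte markers, all 5 B cell markers and all 5 stress genes were higher in replicate 1, with median log2 differences of 0.97, 1.52 and 1.30. In replicate 2, 9 of 11 erythroid and 6 of 7 megakaryocyte markers were higher, with medians of -0.21 and -0.25. Their part in the differences of the members was not tested.

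**Figure D4:**
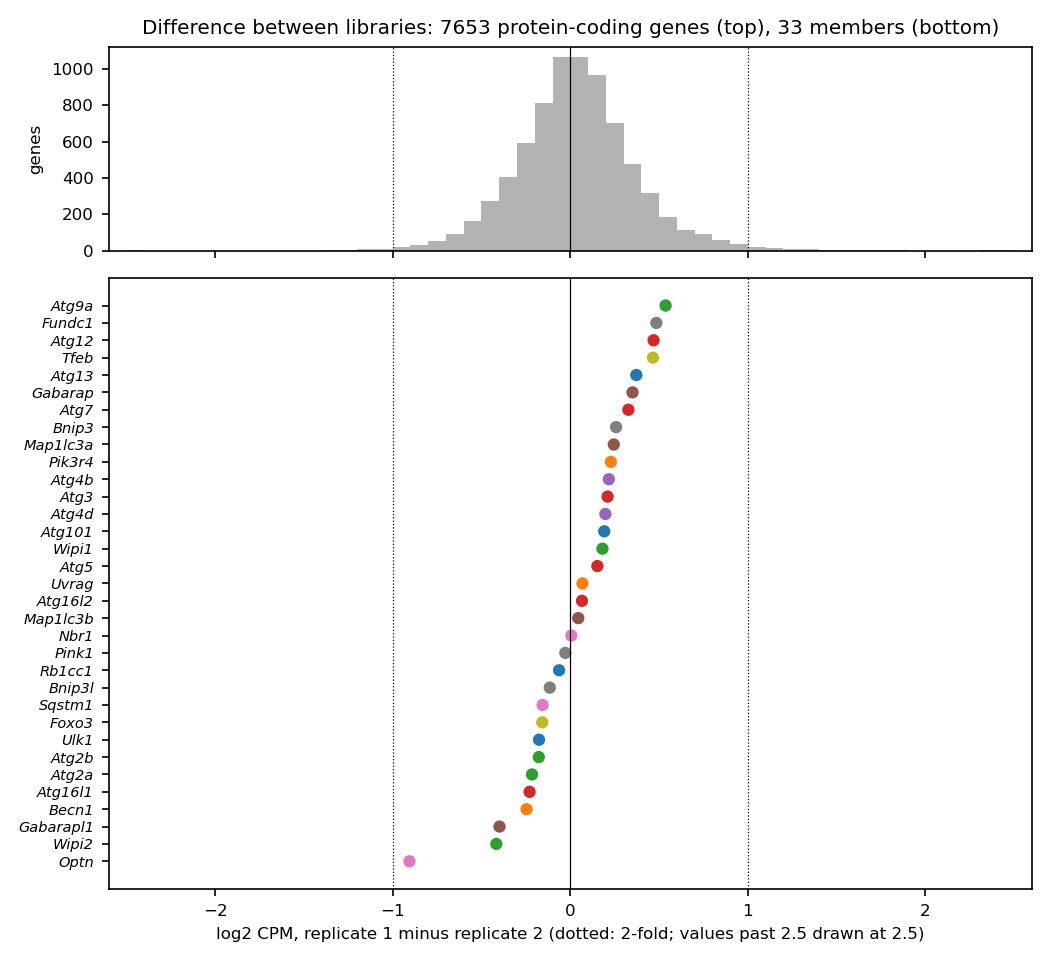
Log2 CPM of replicate 1 minus replicate 2 for the 7653 protein-coding genes whose mean TPM was at least 5 (histogram, top) and for the 33 members at that level (points coloured by role, bottom); dotted lines mark 2-fold. All 33 members lie between -0.91 (Optn) and 0.54 (Atg9a).

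Further genes of the pathway were read from a list of regulators, other receptors and fusion factors. Of the 36 that matched, 33 were at a TPM of 1 or more in both libraries. The highest were Fkbp8, an outer-membrane mitophagy receptor, at 1009 ± 59.1, and Phb2, an inner-membrane one, at 335 ± 32.9. Vamp8, a SNARE of the fusion with lysosomes, was at 121 ± 25.3, the adaptor Tollip at 71.5 ± 3.37 and Rab7, the late endosome GTPase, at 52.2 ± 0.997. Fkbp8 and Phb2 thus lay above every mitophagy gene of the 40, though protein-coding transcripts of Fkbp8 were at 527 and 528. Among the genes under 1 were Prkaa2, an AMPK subunit, at 0.08 and 0.10, and Rubcnl at 0.16 and 0.01. No gene of the list with a mean TPM of 5 or more was over 2-fold apart with separate intervals.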

How the data were processed

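Both libraries were deposited as tables of genes and of transcripts. The values in them, per the file headers, are an expected count, a TPM scaled to 1000000 per library, an FPKM, and a TPM interval whose level is not stated and which is treated as a signal bound. The deposited percent column gives each transcript's share of its gene. Per the text file deposited with each sample, the build was mm10 and the annotation M4. No aligner, quantifier or strand setting is named in those sources. Symbols, positions and transcript types came from GENCODE M21 (42462 of 43346 identifiers matched), so a type may differ from that in M4. Expected counts were rounded, scaled by TMM (factors 0.98 and 1.02) in edgeR 4.0.16 and turned to log2 CPM with a prior count of 2; filterByExpr set the count filter. DESeq2 1.42.0 gave alternative size factors. For ratios 0.01 TPM was added to each value. A ratio was called at a mean log2 ratio over 1 in size, the same sign in both libraries and separate intervals in each. The difference step was tested on simulated data. The 40 members and all lists were chosen with earlier results of these data known. All 40 members were named. Of the other pathway genes, the rule named the highest, those under 1 and those apart. Of each marker list it named only the 2 highest, so markers under 1 or apart can be unnamed. Sums over protein-coding transcripts were added after seeing the data. One pathway gene, Map1lc3c, did not match, and the value of 1 other is not reported here. No test was run, since there was 1 group.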

Additional observations from a re-analysis of the deposited data

How the results depend on the processing

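The median level of the members was 19.2 TPM. It was 15.8 as FPKM, 20.1 over members at a TPM of 1 or more in both libraries and 12.9 over protein-coding transcripts alone, the last chosen after seeing the data. Leaving out each replicate gave 19.1 to 19.3 for the median, 37 to 38 members detected, 8 of 12 pairs called each time and 33 further pathway genes detected each time. The number of members over 2-fold apart was 0 under DESeq2 size factors, log2 TPM and a prior count of 0.5, and 1 with no minimum level, which was Atg10. The median difference between libraries was 0.13 with TMM, 0.13 with DESeq2 size factors and 0.00355 on log2(TPM + 1). On that last scale the median over the 12402 protein-coding genes that passed the count filter was -0.07. Of 60 single pair ratios under alternatives, 23 moved by more than their SD between libraries. These were 11 of 12 in uncorrected counts, 7 of 12 over protein-coding transcripts and 5 of 12 with a pseudocount of 1 TPM. With 2 libraries, leaving out a replicate cannot move a ratio by more than that SD, so those settings do not test stability. None of the called ratios changed sign. Low counts limit Atg10, Atg4a and Atg4c. No paired analysis was possible because there was 1 group.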

Other observations

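Of the members, 7 are overlapped by another annotated gene at a mean TPM of 1 or more, 6 of them by a gene on the opposite strand. How common such overlap is among all protein-coding genes is not given here. Besides those named above, Fchsd2 (17.2 ± 0.594 TPM, SD, n = 2) overlaps Atg16l2, Mrnip (6.61 ± 0.311) overlaps Sqstm1 and Ankzf1 (9.86 ± 0.834) overlaps Atg9a.
The further pathway genes Vmp1 and Tmem41b, which encode lipid scramblases, also had little of their TPM in protein-coding transcripts. Vmp1 was at 17.9 and 19.3 TPM, of which protein-coding transcripts held 1.97 and 1.20. Tmem41b was at 12.4 and 12.8, of which they held 0.30 and 0.38. Protein-coding shares by counts are not given here for Vmp1 and Tmem41b. Whether they resemble Becn1, low by counts as well, or Atg7 was therefore not tested. Among all protein-coding genes at the minimum level, 20.0% were under 50% of TPM in both libraries. The share over the list of further pathway genes is not given here.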
